A study of Mus musculus with 8 samples.

Results

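The 35 genes described here encode the Fanconi anaemia proteins, the BRCA proteins and paralogue complexes (Rad51b, Rad51c, Rad51d, Xrcc2 and Xrcc3) of homologous recombination, and the enzymes and kinases that act with them. They were chosen by symbol, and each was found by its Ensembl identifier among the 55487 gene rows of the count tables. All 35 passed the filter on low counts, which kept 14360 genes for testing. They were measured in 8 bulk Smart-seq2 libraries, a method for full-length cDNA from few cells, made from sorted mouse haematopoietic stem cells (HSCs). Of these, 4 libraries were labelled NTC, the non-target control, and 4 were labelled miR652-KD, in which the microRNA miR-652 was the target of a knockdown. The labels name no strain, age, sort marker or knockdown method, and they do not say whether the libraries of a group came from separate mice. A p-value here thus sets the groups against the spread among libraries, some of which may be technical.

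An interstrand crosslink ties both strands of DNA together and blocks a replication fork. In the Fanconi pathway the core complex, with the E2 enzyme UBE2T, attaches ubiquitin to the FANCD2-FANCI pair at such a fork, and nucleases then cut the crosslink free. The break that remains is resected and repaired by homologous recombination, in which BRCA2 and the paralogue complexes prepare the resected strand to pair with the sister chromatid. Inherited loss of Fanconi genes causes bone marrow failure, and HSCs are known to depend on the pathway to withstand reactive aldehydes. Many genes of both pathways are transcribed mainly in cells that are replicating DNA.

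Each NTC library held 14.02 to 16.76 M counts in genes and each miR652-KD library 14.68 to 19.89 M, M being the SI prefix mega. The hairpin Mir652 had 1, 0, 0 and 2 counts in NTC replicates 1 to 4 and 5, 0, 0 and 0 in miR652-KD, too few to check the knockdown, since Smart-seq2 does not capture mature microRNAs. The HSC label was checked against Procr, Hlf, Mecom, Slamf1, Kit, Ly6a, Fgd5, Hoxb5 and Mllt3. All 9 were detected in every library, at a sum of 1703 to 1833 counts per M (CPM) in NTC and 1789 to 1891 CPM in miR652-KD. Detection and a sum do not measure purity, and single markers of this list shifted in both directions, as given below. Over all genes 6 of 14360, or 0.0418%, passed an adjusted p of 0.05 in edgeR's quasi-likelihood test, and 61, or 0.425%, in DESeq2. Fewer cells of a type and less RNA per cell cannot be told apart in bulk libraries.

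The sequences of the microRNA itself are shown because a microRNA finds its targets through its seed, bases 2 to 8 from its 5′ end, given in capitals. Both arms are from RefSeq (GRCm38.p6) and lie on the plus strand, at chrX:142739020-142739043 for the 5p arm and chrX:142739060-142739080 for the 3p arm.
mmu-miR-652-5p: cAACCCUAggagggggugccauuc
mmu-miR-652-3p: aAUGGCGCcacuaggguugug

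The longest annotated 3′ UTR of each of the 35 genes was searched for the word that pairs with bases 2 to 8. For the 3p arm, whose word is GCGCCAT, 0 of 35 repair genes held a site, against 230 of 11616 tested protein-coding genes (1.98%). For the 5p arm, whose word is TAGGGTT, 3 of 35 held a site (8.57%), against 982 of 11616 (8.45%). The 3 were Brca1, Bard1 and the resection gene Rbbp8. The UTRs of the repair genes were shorter, with a median of 646 bases against 1170. The sites of the BRCA1-BARD1 pair are shown with their flanks, the word in capitals, since these proteins work as a heterodimer. In Brca1 the word lies at chr11:101489238-101489244 (mm10, minus strand, a 7mer-m8 site), and in Bard1 at chr1:71028100-71028106 (mm10, minus strand, an 8mer site, in which an A follows the word).
Brca1 site: acacccagaaTAGGGTTtgtgcaggacact
Bard1 site: cttgactgagTAGGGTTaagatgttgcaga

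These 3 genes had log2 differences, miR652-KD minus NTC, of 0.62 (SE 0.85) for Brca1, 0.62 (SE 0.51) for Bard1 and 0.30 (SE 0.27) for Rbbp8, with edgeR adjusted p of 0.999, 0.989 and 0.992. None passed the threshold, and in each the libraries of both groups overlapped. A site is a match of letters, and no statement about binding follows from it.

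Promoters were searched because E2F sites are the element through which many replication and repair genes are switched on at the start of S phase. RefSeq windows of 300 bases (GRCm38.p6, 250 before the start and 50 after) were at hand for 28 of the 35 genes, in 31 windows. On either strand, an E2F word (TTTCCCGC, TTTGGCGC, TTTCGCGC or TTTGCCGC) was found in 6 of 31 windows (19.4%), against 744 of 32851 windows of all genes (2.26%) and 498 of 12577 windows of the tested genes (3.96%). The 6 windows belong to Bard1, Brca2, Fancg, Chek2 and, with 2 starts, Rad51c. The CCAAT box was found in 21 of 31 windows (67.7%), against 37.4% of all windows and 37.8% of those of tested genes. The word TTTGAA, by which cell-cycle homology regions are recognised, was found in 2 of 31 (6.45%), against 17.9% and 12.4%. Each word was searched on its own, so matches of different words may overlap. The stretches around the E2F word are shown for 4 genes, on the strand of the gene with the word in capitals. They lie at chr1:71103146-71103205 (minus strand) for Bard1, chr4:43010318-43010377 (minus strand) for Fancg, chr5:110839807-110839866 (plus strand) for Chek2 and chr5:150522429-150522488 (plus strand) for Brca2. In Chek2 and Brca2 the word is on the opposite strand and so reads as its reverse complement.
Bard1 promoter: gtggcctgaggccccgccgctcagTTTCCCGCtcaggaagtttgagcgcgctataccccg
Fancg promoter: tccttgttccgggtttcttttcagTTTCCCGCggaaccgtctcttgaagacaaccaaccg
Chek2 promoter: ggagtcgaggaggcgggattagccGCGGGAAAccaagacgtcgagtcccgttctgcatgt
Brca2 promoter: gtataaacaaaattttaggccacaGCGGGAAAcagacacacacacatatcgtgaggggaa

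The capitals start 209 bases before the start in Bard1, 52 in Fancg, 152 in Chek2 and 168 in Brca2. These are RefSeq starts, and the outermost GENCODE start of Bard1, at 71103146, lies at the 3′ end of the stretch shown. That of Fancg, at 43010506, lies upstream of the whole stretch shown, which thus falls inside the gene as GENCODE annotates it. Genes with an E2F word had log2 differences on both sides of 0. The 5 had a median log2 difference of -0.02, with 2 above 0, and the 23 with a window and no match had a median of 0.10, with 13 above 0. For the CCAAT box the medians were -0.02 over 19 genes with a match and 0.34 over 9 without. A match is a description, not a site shown to be bound, and these medians carry no test.

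The repair genes were expressed at low levels, and the order of levels ran from Usp1 down to Fanci. Compared per length, as CPM per kb of exon in NTC, their median was 2.93, against 7.31 for 11660 tested protein-coding genes, and 10 of 35 lay above that median. Usp1, the deubiquitinase that strips FANCD2 and FANCI, stood at 20 ± 9.45 (SD, n = 4). Rad50, the coiled-coil ATPase of the MRN complex, followed at 16.5 ± 2.02 (SD, n = 4), and Rad51d, of the paralogue complexes, at 15.8 ± 3.18 (SD, n = 4). These 3 differed by less than their spread between libraries. Fance (13.1), Chek2 (11.7), Fancg (11.6), Xrcc3 (11.5) and Nbn (10.2) were the other members above 10 CPM per kb, and each lay within the spread of its neighbours in the order. At the lower end stood Fanci (0.67), Fanca (0.725), Rad51c (0.834), Bard1 (0.854) and Fancd2 (0.859), which also lay within the spread of each other. With the longest transcript as the length, the median was 4.58 against 9.86 and 9 of 35 lay above.

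**Figure D1:**
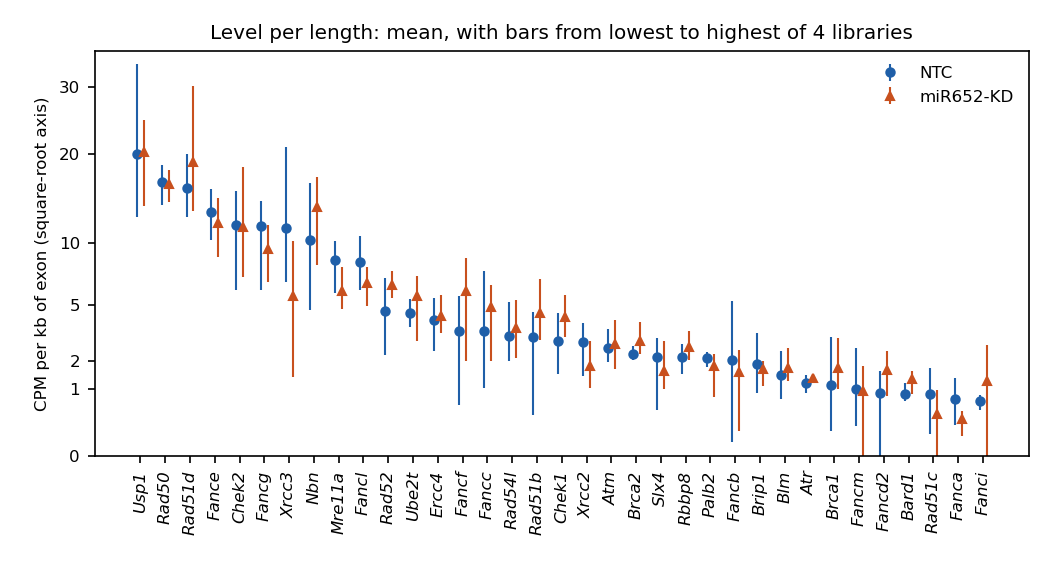
Level of each of the 35 genes in CPM per kb of exon (square-root axis), in NTC (circles) and miR652-KD (triangles); symbols are means of 4 libraries and bars run from the lowest to the highest library. Usp1 has the highest NTC mean at 20 and Fanci the lowest at 0.67, and the bars of both groups overlap in every gene.

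None of the 35 genes differed between knockdown and control libraries beyond the spread of the libraries. Of the 35, 0 passed the threshold in edgeR, DESeq2 or limma-voom. At an unadjusted p below 0.05 edgeR had 0 of 35, against 5.99% of all tested genes, DESeq2 had 0 and limma-voom had 1, Xrcc3. In 0 of 35 genes did the 4 values of a group lie apart from those of the other group, against 4.39% of all tested genes. The smallest edgeR adjusted p was 0.86, for Mre11a, followed by 0.904 for Xrcc3. Values above 0 were found in 20 of 35 genes (57.1%), against 49.5% of all tested genes, and the median log2 difference was 0.10, against -0.0043 over all tested genes. A difference beyond 0.5 in size was found in 12 of 35 (34.3%), 8 above and 4 below 0, against 26.2% of all tested genes.

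**Figure D2:**
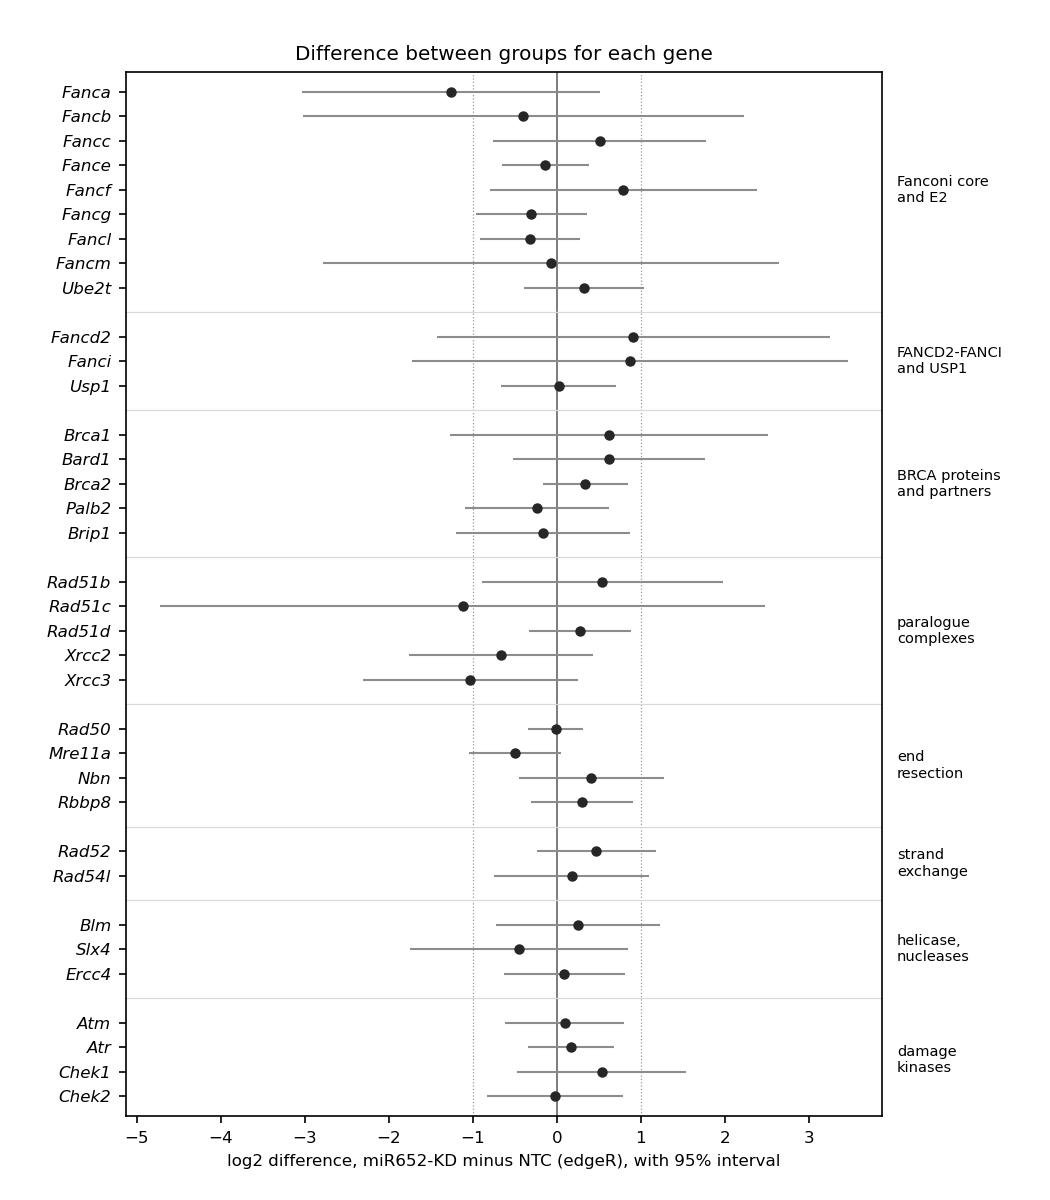
Log2 difference of each gene (miR652-KD minus NTC, edgeR) with its 95% interval, ordered by role; dotted lines mark differences of -1 and 1. Every interval crosses 0, and those of 12 genes lie within the dotted lines.

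The size of the differences followed the level of the genes. Of the 14 members under 15 CPM in NTC, 10 had a difference beyond 0.5 (71.4%, against 49.8% of all tested genes at that level). Of the 21 at or above 15 CPM, 2 did, Fancc and Xrcc3 (9.52%, against 11.9%). Leaving out 1 library moved the log2 difference by over 1.5 times, or turned its sign, in 32 of the 35 genes, all but Bard1, Xrcc2 and Mre11a. A difference near 0 meets this limit after a small shift, so the count does not measure the size of the shifts. Rad50 is among the 32 though it ran only from -0.0888 to 0.0569. Of the 12 genes beyond 0.5, only Fanca, Bard1, Rad51c and Xrcc3 remained beyond it whichever library was left out. Fancc ran from 0.21 without NTC replicate 3 to 1.27 without NTC replicate 4, and Xrcc3 from -1.49 without miR652-KD replicate 3 to -0.56 without NTC replicate 3. The SE of the log2 difference had a median of 0.76 in the first set and 0.32 in the second, against 0.92 and 0.24 for all tested genes at those levels. In 12 of 35 genes the 95% interval lay within -1 to 1, which is a change of 2-fold in either direction, so a change of that size lies outside the interval for them. For the other 23 genes the interval held a 2-fold change in at least 1 direction. The narrowest interval was that of Rad50 (-0.34 to 0.31) and the widest that of Rad51c (-4.72 to 2.48).

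**Figure D3:**
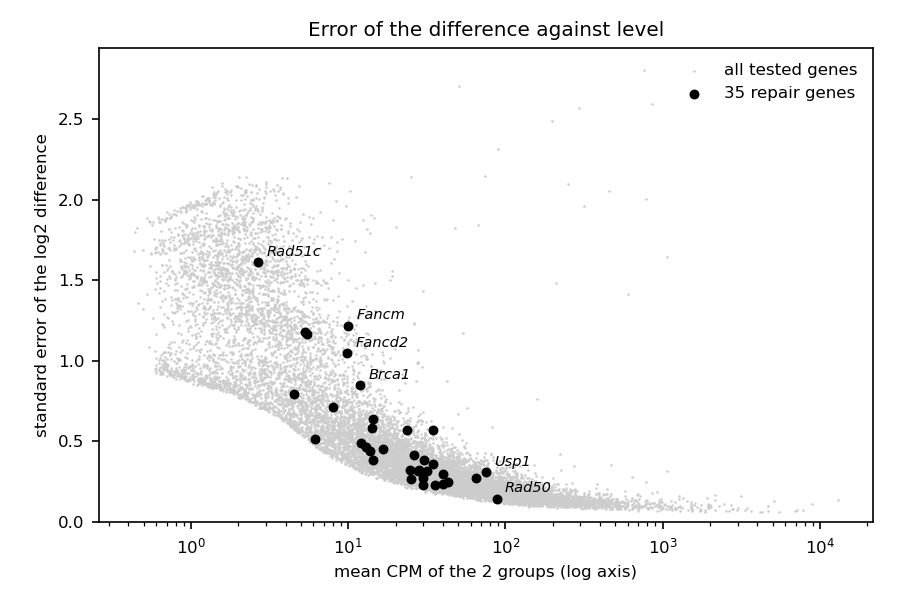
Standard error of the log2 difference against the mean CPM of both groups (log axis), for all 14360 tested genes (grey) and the 35 repair genes (black). The error falls with the level, from 1.61 for Rad51c to 0.15 for Rad50.

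In the Fanconi core complex and its E2 enzyme, 3 of 9 values lay above 0 and 6 below, the median was -0.14, and 0 passed. Fance (ENSMUSG00000007570.16, chromosome 17, 28313519 to 28326572), which bridges the core complex to FANCD2, had the highest level per length. It stood at 48.4, 32.7, 36.6 and 49.9 CPM in NTC replicates 1 to 4 and at 46.8, 40.96, 27.7 and 36.9 CPM in the 4 replicates of miR652-KD, in the same order. NTC replicates 1 and 4 lay above all miR652-KD values and miR652-KD replicate 3 below all NTC values, with the other 5 libraries mixed between them, and its log2 difference was -0.14 (SE 0.23, 95% interval -0.66 to 0.38, edgeR adjusted p = 0.999). Fanca (ENSMUSG00000032815.16, chromosome 8, 123268300 to 123318576), the core subunit most often mutated in patients, had the lowest level. It stood at 5.62, 11.7, 1.85 and 6.23 CPM in NTC and at 3.52, 3.88, 0.795 and 2.38 CPM in miR652-KD. Among these, 3 NTC values lay above all 4 miR652-KD values and NTC replicate 3 lay below 3 of them. The log2 difference of Fanca was -1.26 (SE 0.80, 95% interval -3.04 to 0.51, edgeR adjusted p = 0.934), the most negative of the 35. Fancl, the ubiquitin ligase subunit, had a log2 difference of -0.32 and Ube2t, its E2 partner, 0.32. Log2 differences were -0.30 for Fancg, which joins FANCA, and -0.40 for Fancb, which stabilises the ligase subcomplex and whose NTC levels ranged from 0.12 to 15.7 CPM. On the same scale the differences were 0.51 for Fancc, a partner of FANCE, and 0.79 for Fancf, an adaptor between subunits. Fancm, the translocase that recognises the stalled fork, had a log2 difference of -0.07 (SE 1.22), and had 0 counts in miR652-KD replicate 3 against 18.5 CPM in replicate 4.

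The monoubiquitinated pair and its deubiquitinase had 3 of 3 values above 0, with a median of 0.87, and 0 passed. Usp1 (ENSMUSG00000028560.11, chromosome 4, 98923810 to 98935543) stood at 67.4, 126, 58.5 and 46.7 CPM in NTC and at 92.8, 80.3, 51.1 and 79.1 CPM in miR652-KD. NTC replicate 2 held the highest of the 8 values and NTC replicate 4 the lowest, so the control group enclosed the other. Usp1 had a log2 difference of 0.02 (SE 0.31, 95% interval -0.67 to 0.71, edgeR adjusted p = 0.999). Fanci (ENSMUSG00000039187.16, chromosome 7, 79391929 to 79450264) stood at 3.27, 4.73, 2.69 and 4.79 CPM in NTC and at 0, 8.49, 15.6 and 4.18 CPM in miR652-KD. The miR652-KD libraries held both the lowest value, 0 counts in replicate 1, and the highest, in replicate 3. By edgeR, Fanci had a log2 difference of 0.87 (SE 1.16, 95% interval -1.73 to 3.46, edgeR adjusted p = 0.999), but it was -1.33 in limma-voom and 0.13 without miR652-KD replicate 3. Fancd2 (ENSMUSG00000034023.16, chromosome 6, 113531682 to 113597017), its partner, stood at 0, 9.46, 12.7 and 5.07 CPM in NTC and at 19.2, 11.2, 14.8 and 6.27 CPM in miR652-KD. NTC replicate 1 was at 0 counts and the other 3 NTC libraries lay partly among those of miR652-KD. The Fancd2 estimate on the log2 scale was 0.91 (SE 1.05, 95% interval -1.43 to 3.25, edgeR adjusted p = 0.995). It was 0.50 without NTC replicate 1, 1.41 without NTC replicate 3 and 2.09 in limma-voom. A count of 0 allowed up to 0.196 CPM in the library with no Fancd2 and up to 0.207 CPM in that with no Fanci, taking 3 counts as the limit and covering counting error only, since Smart-seq2 has no molecular identifiers.

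Among the BRCA proteins and their partners 3 of 5 values were above 0, with a median of 0.34, and 0 passed. Brca2 (ENSMUSG00000041147.10, chromosome 5, 150522630 to 150570329), which acts on the resected strand to start its exchange, had the highest level per length. It stood at 28.3, 36.6, 32.9 and 27.7 CPM in NTC and at 31.1, 37.1, 36.8 and 53.8 CPM in miR652-KD. The highest value was that of miR652-KD replicate 4, and 1 of the other 3 lay inside the NTC range and 2 within 1 CPM above it. The log2 difference of Brca2 was 0.34 (SE 0.23, 95% interval -0.17 to 0.85, edgeR adjusted p = 0.942), an interval that leaves out a 2-fold change. Bard1 (ENSMUSG00000026196.7, chromosome 1, 71027498 to 71103146), the RING partner of BRCA1, stood at 4.90, 3.71, 4.01 and 6.71 CPM in NTC and at 8.96, 7.52, 8.60 and 4.71 CPM in miR652-KD. In 3 miR652-KD libraries Bard1 was above all 4 NTC libraries, and miR652-KD replicate 4 lay within their range. The log2 difference of Bard1 was 0.62 (SE 0.51, 95% interval -0.52 to 1.77, edgeR adjusted p = 0.989). Brca1 (ENSMUSG00000017146.12, chromosome 11, 101488764 to 101551955) encodes a protein that promotes resection and recruits PALB2. It stood at 6.99, 26.7, 1.20 and 2.46 CPM in NTC and at 26.2, 11.2, 11.8 and 8.36 CPM in miR652-KD. NTC replicate 2 was the highest of all 8 libraries, and the other 3 NTC libraries lay below all 4 miR652-KD libraries. Its log2 difference was 0.62 (SE 0.85, 95% interval -1.27 to 2.52, edgeR adjusted p = 0.999), and 2.02 without NTC replicate 2. It turned to -0.23 when NTC replicates 3 and 4 were left out together. Palb2, the bridge between BRCA1 and BRCA2, had a log2 difference of -0.24 and Brip1, a helicase that binds BRCA1, -0.16.

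Of the genes of the paralogue complexes, which act in early strand exchange, 2 of 5 were above 0, with a median of -0.67, and 0 passed. Rad51d (ENSMUSG00000018841.17, chromosome 11, 82876434 to 82890614) stood at 74.4, 53.3, 59.6 and 46.8 CPM in NTC and at 64.6, 57.8, 112 and 48.97 CPM in miR652-KD. The highest value belonged to miR652-KD replicate 3, and the other 3 of its group lay within the NTC range. Its log2 difference was 0.28 (SE 0.27, 95% interval -0.33 to 0.88, edgeR adjusted p = 0.995), and -0.04 without miR652-KD replicate 3. Rad51c (ENSMUSG00000007646.13, chromosome 11, 87376645 to 87404954), which occurs in both paralogue complexes, stood at 3.53, 3.20, 7.42 and 0.479 CPM in NTC and at 2.48, 4.25, 0 and 0 CPM in miR652-KD. It was detected in all NTC libraries and had 0 counts in miR652-KD replicates 3 and 4, where that allows up to 0.149 and 0.174 CPM. The lowest NTC value lay between those zeros and the other 2 values of miR652-KD. Its log2 difference was -1.12 (SE 1.61, 95% interval -4.72 to 2.48, edgeR adjusted p = 0.999), the widest interval of the set. Xrcc3 (ENSMUSG00000021287.12, chromosome 12, 111803192 to 111813873), the partner of RAD51C in the smaller complex, stood at 26.7, 18.3, 57.7 and 23.5 CPM in NTC and at 11.03, 18.99, 28.03 and 3.78 CPM in miR652-KD, a log2 difference of -1.03 (SE 0.57, 95% interval -2.31 to 0.25, edgeR adjusted p = 0.904). NTC replicate 3 held its highest value and miR652-KD replicate 4 its lowest. Xrcc2, the partner of RAD51D, had a log2 difference of -0.67 and Rad51b 0.54.

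End resection had 2 of 4 values above 0, with a median of 0.14, and 0 passed. Rad50 (ENSMUSG00000020380.16, chromosome 11, 53649519 to 53707319) stood at 92.4, 100.2, 74.4 and 87.2 CPM in NTC and at 76.2, 85.1, 96.9 and 92.5 CPM in miR652-KD. The 8 values lay within a factor of 1.35 of each other, the tightest range of the 35, and the NTC libraries held both ends. The log2 difference of Rad50 was -0.01 (SE 0.15, 95% interval -0.34 to 0.31, edgeR adjusted p = 0.999). Mre11a (ENSMUSG00000031928.15, chromosome 9, 14784654 to 14837123), the nuclease that binds RAD50, stood at 60.5, 56.2, 34.4 and 50.05 CPM in NTC and at 38.4, 28.2, 29.6 and 46.4 CPM in miR652-KD. The 3 highest values were NTC libraries, while NTC replicate 3 lay between the miR652-KD libraries. Its log2 difference was -0.50 (SE 0.25, 95% interval -1.04 to 0.05, edgeR adjusted p = 0.86), with an interval that ends just above 0. Nbn, the third protein of the MRN complex, had a log2 difference of 0.41, so RAD50, MRE11 and NBN transcripts had no common direction. Rbbp8 (ENSMUSG00000041238.16, chromosome 18, 11633276 to 11745221), which encodes the resection factor CtIP and had the lowest level per length of this role, stood at 18.5, 34.8, 30.1 and 23.5 CPM in NTC and at 34.8, 42.8, 25.6 and 28.5 CPM in miR652-KD. The highest Rbbp8 value was in miR652-KD replicate 2 and the lowest in NTC replicate 1, with overlap in between. Rbbp8 had a log2 difference of 0.30 (SE 0.27, 95% interval -0.31 to 0.91, edgeR adjusted p = 0.992).

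The strand exchange helpers were both above 0 and did not pass. Rad52 (ENSMUSG00000030166.14, chromosome 6, 119902698 to 119922828), which anneals single strands, stood at 26.8, 40.01, 26.99 and 12.9 CPM in NTC and at 37.3, 35.9, 43.2 and 31.6 CPM in miR652-KD. NTC replicate 2 lay among the miR652-KD libraries and the other 3 NTC libraries lay below them. The log2 difference of Rad52 was 0.47 (SE 0.32, 95% interval -0.24 to 1.18, edgeR adjusted p = 0.944). Rad54l (ENSMUSG00000028702.15, chromosome 4, 116094264 to 116123690), a DNA translocase that helps strand invasion, stood at 15.2, 22.6, 20.2 and 40.4 CPM in NTC and at 36.9, 16.2, 41.2 and 16.9 CPM in miR652-KD. NTC replicate 4 and miR652-KD replicates 1 and 3 were high and the other 5 libraries low, and its log2 difference was 0.18 (SE 0.41, 95% interval -0.74 to 1.10, edgeR adjusted p = 0.999).

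The helicase and nuclease genes had 2 of 3 values above 0, with a median of 0.09, and 0 passed. Ercc4 (ENSMUSG00000022545.13, chromosome 16, 13109684 to 13150617), the XPF nuclease that unhooks crosslinks, stood at 37.2, 19.9, 16.5 and 35.3 CPM in NTC and at 28.5, 26.9, 22.2 and 38.3 CPM in miR652-KD. Its NTC values formed a high and a low pair with most miR652-KD values between them, and its log2 difference was 0.09 (SE 0.32, 95% interval -0.62 to 0.81, edgeR adjusted p = 0.999). Blm (ENSMUSG00000030528.12, chromosome 7, 80454733 to 80535119), the helicase that dissolves double Holliday junctions, stood at 21.4, 11.1, 6.16 and 11.5 CPM in NTC and at 14.6, 11.6, 22.6 and 10.98 CPM in miR652-KD. The highest and the second highest value of Blm came from different groups, and its log2 difference was 0.25 (SE 0.44, 95% interval -0.73 to 1.23, edgeR adjusted p = 0.999). Slx4, the scaffold that holds nucleases at the crosslink, had a log2 difference of -0.45 (SE 0.58).

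Among the damage kinases 3 of 4 values were above 0, with a median of 0.13, and 0 passed. Chek2 (ENSMUSG00000029521.7, chromosome 5, 110839979 to 110874145), the checkpoint kinase downstream of ATM, stood at 37.8, 37.97, 46.4 and 18.1 CPM in NTC and at 35.1, 21.1, 55.1 and 26.95 CPM in miR652-KD. Its lowest value was in NTC replicate 4 and its highest in miR652-KD replicate 3. Chek2 had a log2 difference of -0.02 (SE 0.36, 95% interval -0.83 to 0.79, edgeR adjusted p = 0.999). Atr (ENSMUSG00000032409.15, chromosome 9, 95857597 to 95951781), the kinase of stalled forks, stood at 34.4, 20.4, 31 and 26.02 CPM in NTC and at 33.5, 31.5, 32.3 and 28.4 CPM in miR652-KD. The 4 miR652-KD values lay close together, with an SD of 2.18 CPM against 6.12 CPM in NTC, and inside the NTC range. Atr had a log2 difference of 0.17 (SE 0.23, 95% interval -0.34 to 0.68, edgeR adjusted p = 0.999). Atm, the kinase of double-strand breaks, had a log2 difference of 0.10 and Chek1, the kinase downstream of ATR, 0.53.

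**Figure D4:**
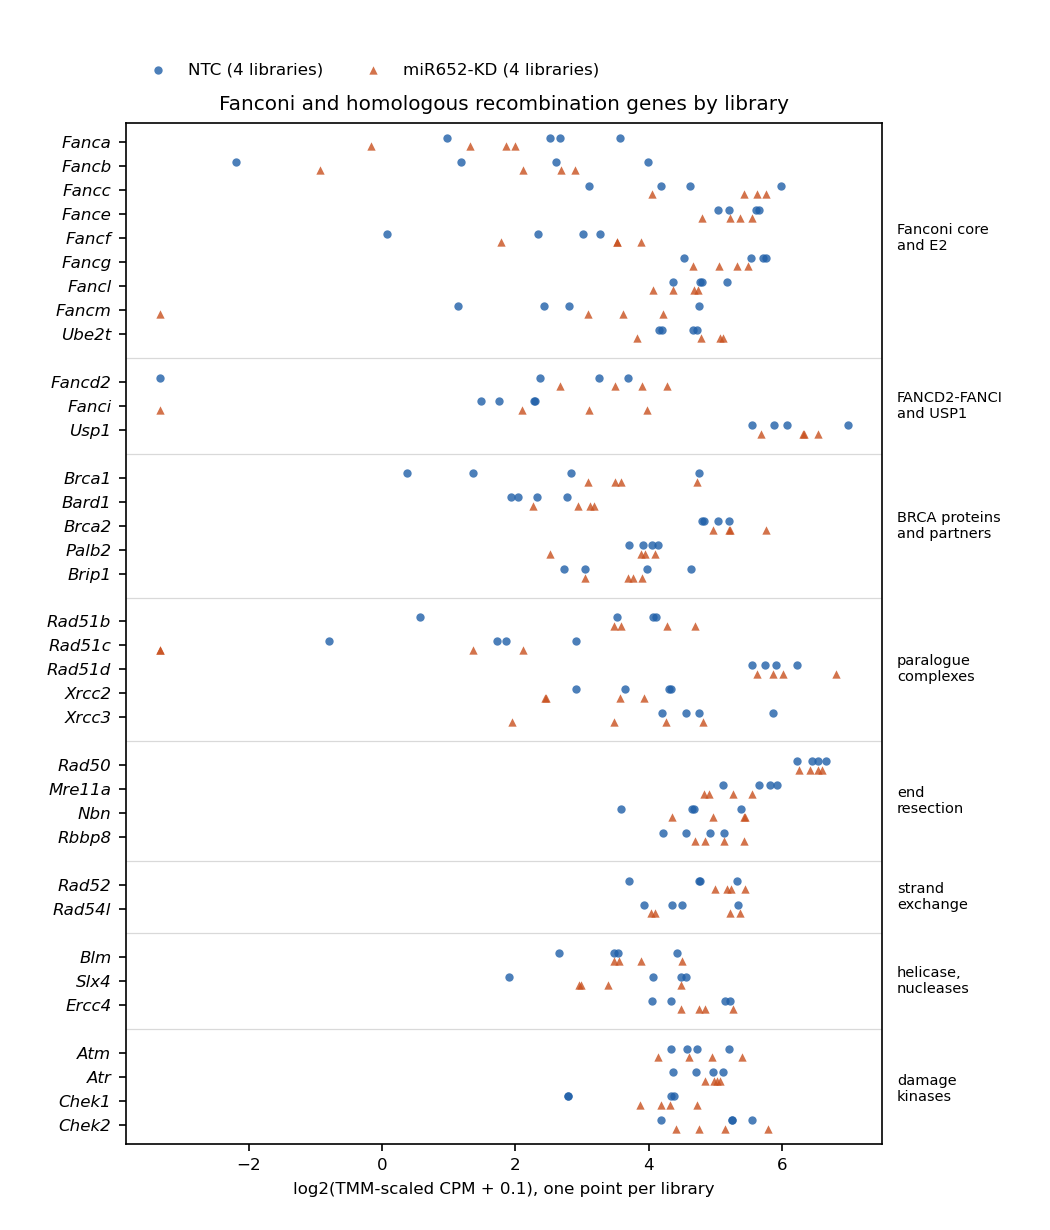
Level of each gene in each library, as log2 of TMM-scaled CPM plus 0.1, with NTC as circles and miR652-KD as triangles, grouped by role; the leftmost symbols are counts of 0. The 5 values at 0 belong to Fancm, Fancd2, Fanci and, in 2 libraries, Rad51c, and the groups overlap in all 35 genes.

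Across the 35 genes, libraries of the same group differed more than the group means. The mean log2 CPM of the set was 4.00, 4.23, 3.87 and 3.87 in NTC replicates 1 to 4 and 4.19, 4.06, 3.94 and 4.06 in miR652-KD replicates 1 to 4. NTC replicate 2 was the highest of all 8 and held the highest NTC value in 12 of 35 genes, among them Brca1, Fancm, Usp1 and Chek1. NTC replicate 1 did so in 11 genes, and an even split over 4 libraries gives 8.75 each. The mean of miR652-KD replicate 1 came next, and it held the highest value of its group in 11 genes, against 10 in replicate 4 and 9 in replicate 3. In 5 genes NTC replicate 2 and miR652-KD replicate 1 both led their groups. NTC replicates 3 and 4 had the lowest means and held the lowest NTC value in 11 and 10 genes.

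The same libraries were compared on 28 S phase genes, such as the MCM helicase and DNA polymerase subunits, and on 29 genes of G2 and M phase. The S phase mean was 5.37, 6.13, 5.90 and 5.31 log2 CPM in NTC and 6.36, 5.78, 5.59 and 5.92 in miR652-KD. The libraries highest and second highest for S phase, miR652-KD replicate 1 and NTC replicate 2, were also the pair with the highest means of the repair genes. The order of the other libraries differed between both lists. NTC replicate 3, at 5.90 for S phase, had a repair gene mean of 3.87, the lowest together with NTC replicate 4. The mean of the G2 and M phase genes was 4.74, 4.78, 5.40 and 4.84 in NTC and 4.97, 5.42, 6.19 and 5.51 in miR652-KD. Its highest library, miR652-KD replicate 3, had a repair gene mean of 3.94, below the mean of its group. The part of the cell cycle lists in the values of the repair genes was not tested. Values above 0 were found in 22 of 28 genes for S phase, at a median log2 difference of 0.25, and in 25 of 29 for G2 and M phase, at a median of 0.61, beside the 20 of 35 and 0.10 of the repair genes. None of the cell cycle genes passed the threshold in edgeR, and 1 did in DESeq2, the chromosomal passenger gene Cdca8 (adjusted p = 0.0426). At an unadjusted p below 0.05 edgeR had 6 of 28 S phase genes (21.4%) and 12 of 29 G2 and M phase genes (41.4%). Over all tested genes the share was 5.99%. These counts changed when 1 library was left out, where fewer samples entered the fit. They ran from 2 (without miR652-KD replicate 1) to 8 for S phase. For G2 and M phase they ran from 5 (without miR652-KD replicate 3) to 12. The median stayed above 0 in each of these fits. For S phase 19 to 26 of 28 genes were above 0, at medians of 0.20 to 0.34. For G2 and M phase 22 to 28 of 29 were, at medians of 0.36 to 0.78. The genes of smallest p, with their log2 differences, were Pold1 (0.70), Pola1 (0.77) and Uhrf1 (0.95) for S phase and Cdca8 (0.84), Anln (1.33) and Nusap1 (0.93) for G2 and M phase.

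**Figure D5:**
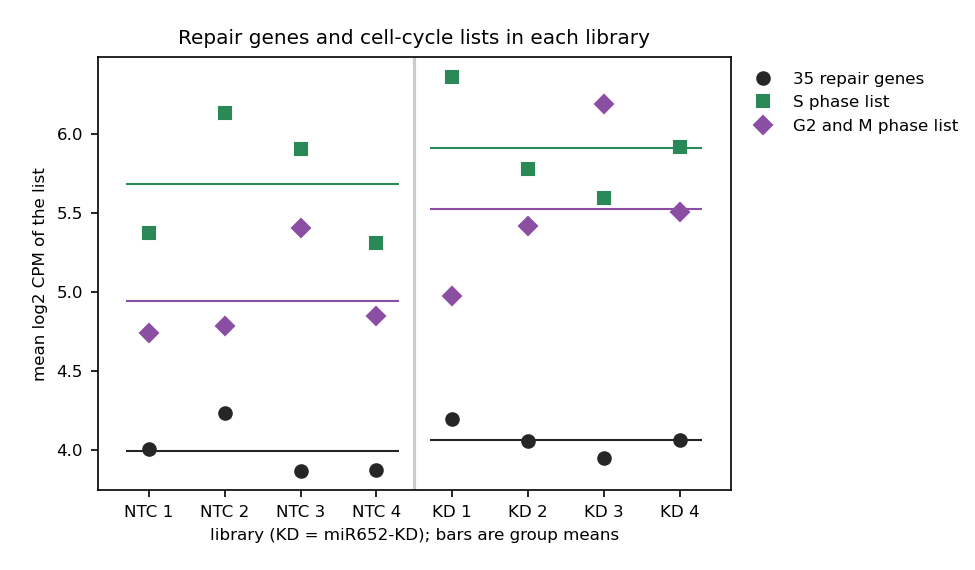
Mean log2 CPM per library of the 35 repair genes (circles), 28 S phase genes (squares) and 29 G2 and M phase genes (diamonds), with lines at the means of each group. For the repair genes the group means are 3.99 in NTC and 4.06 in miR652-KD, and the groups overlap in all 3 lists.

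Other genes of the same pathways were taken from 6 lists with 105 genes, of which 103 were tested. In edgeR 0 passed, in limma-voom 0, and in DESeq2 1, H2afx. Of the 103, 60 were above 0, with a median log2 difference of 0.06, and 8 had an unadjusted p below 0.05, 7 of them higher and 1 lower in miR652-KD. That is 7.77%, near the 5.99% of all tested genes. The 19 other Fanconi and crosslink repair genes, such as the nuclease genes Ercc1 and Mus81, had a median of 0.02, with 11 above 0 and none at an unadjusted p below 0.05. The 27 other genes of homologous recombination had a median of 0.06, with 16 above 0. Of these Tonsl, which binds histones behind the fork, had a log2 difference of 1.61, the nuclease gene Dna2 0.63 and the RPA subunit gene Rpa3 0.54, with edgeR adjusted p of 0.801, 0.803 and 0.833.

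Among 21 genes of damage signalling and repair choice, H2afx and Babam1 lay apart between groups, and neither passed in edgeR. H2afx, the histone variant that is phosphorylated around a break, stood at 128, 105, 150.4 and 108 CPM in NTC and at 173, 198, 234 and 174 CPM in miR652-KD. All its miR652-KD values were above all NTC values, at 0.67 on the log2 scale (SE 0.15), but edgeR's adjusted p was 0.522, while DESeq2 gave an adjusted p of 0.0302. Babam1, a subunit of the BRCA1-A complex that limits resection, stood at 114, 89.6, 116 and 109 CPM in NTC and at 152, 144, 157 and 145 CPM in miR652-KD. Its groups did not overlap either, at 0.48 on the log2 scale (SE 0.12), and edgeR's adjusted p was 0.598. The list as a whole had a median of 0.04, with 12 of 21 above 0.

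The 13 end joining genes, which act on the competing repair route, had a median of -0.02, with 6 above 0 and none at an unadjusted p below 0.05. The 7 genes of aldehyde clearance had a median of 0.07, with 5 above 0. Of these Aldh1a1, a retinaldehyde dehydrogenase, had a log2 difference of 0.48 without overlap (edgeR adjusted p = 0.78). The 16 tested p53 targets had a median of 0.11, with 10 above 0. The nuclease gene Aen had a log2 difference of 0.49 without overlap and Trp53inp1, an autophagy and cell death cofactor, -0.90 with overlap, with edgeR adjusted p of 0.803 and 0.832. In all, 6 of the 103 genes lay apart between groups, each of them higher in miR652-KD, against the 4.39% of all tested genes given above.

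Markers of other blood cells differed between libraries. The 10 erythroid markers summed to 3862 to 7264 CPM in NTC and 1818 to 4403 CPM in miR652-KD. Of this sum Car2 alone held 1301 to 2211 CPM in NTC and 1781 to 2230 CPM in miR652-KD. The 10 neutrophil markers summed to 554 to 15657 CPM in NTC and 619 to 5555 CPM in miR652-KD, where NTC replicates 3 and 4 held 777 and 1188 CPM of S100a9 and the other 6 libraries 2.09 to 11.6 CPM. Other genes of this list were high elsewhere too. Elane stood at 0.457, 1002, 1315 and 2540 CPM in NTC and at 1942, 4.31, 0.0994 and 9.93 CPM in miR652-KD. Mpo reached 1117 CPM in NTC replicate 2 and 2002 CPM in miR652-KD replicate 1. Prtn3 held 542 to 1273 CPM in NTC and 576 to 969 CPM in miR652-KD. The 10 macrophage and dendritic markers summed to 1335 to 2931 CPM in NTC and 2060 to 2361 CPM in miR652-KD, the 7 B lymphoid markers to 47.3 to 98.2 and 48.7 to 94.99 CPM, and the 6 T lymphoid markers to 16.9 to 29.3 and 13.7 to 43.8 CPM, with Cd3e, Cd3g and Cd8a at 0 in all libraries. The 6 megakaryocyte markers summed to 272 to 449 and 285 to 450.1 CPM. The 6 mast cell and basophil markers summed to 250 to 464 and 389 to 499 CPM, with Prss34 at 0 in all. Single genes made up most of some sums. Gata2 held 233 to 452 CPM in NTC and 380 to 490 CPM in miR652-KD of the mast cell and basophil sum. Cd79b held 47.2 to 78.5 and 44.3 to 63.2 CPM of the B lymphoid sum. Lck held 16.9 to 28.2 and 13.7 to 43.8 CPM of the T lymphoid sum. Some single markers differed between the groups. Cd74 and H2-Aa, which serve antigen presentation by MHC class II, were 2 of the 6 genes of the whole table that passed in edgeR. Cd74 stood at 371, 258, 402 and 370.2 CPM in NTC and at 981, 662, 746 and 843 CPM in miR652-KD, 1.21 higher on the log2 scale (SE 0.16, adjusted p = 0.0476 by edgeR). H2-Aa stood at 277, 210.4, 252 and 290.1 CPM in NTC and at 528, 467, 516 and 551 CPM in miR652-KD, 1.00 higher on the log2 scale (SE 0.11, adjusted p = 0.0241 by edgeR). All miR652-KD libraries were above all NTC libraries in both, although neither passed once any 1 library was left out, and Cd74 passed neither with RLE scaling nor in a fit that was not robust. Of the 6 macrophage and dendritic markers that were tested, 4 were above 0 and 2 below. Lyz2, at 661 to 2188 CPM in NTC and 739 to 942 CPM in miR652-KD, had a log2 difference of -0.66. That of C1qb was -0.54 and that of C1qa 0.05, and none of these passed in edgeR. Without overlap but not past the threshold in edgeR were Cd68 (0.99), Ly6a (0.62), Kit (-0.34), the mast cell protease gene Cpa3 (-1.95) and the erythroid genes Alas2 (-2.88) and Hbb-bt (-2.68), each given as a log2 difference. DESeq2 also called Ly6a and Alas2, and the neutrophil genes S100a8, S100a9 and Ngp, which were high in NTC replicates 3 and 4 only. Of the 9 HSC markers, 5 had an unadjusted p below 0.05 in edgeR (55.6%, against 5.99% of all tested genes). Ly6a, Mllt3 (0.60) and Hoxb5 (1.04) were higher and Kit and Mecom (-0.33) lower in miR652-KD, on the log2 scale. The part of the markers in the values of the repair genes was not tested. Without NTC replicates 3 and 4, 0 repair genes passed, 18 of 35 were above 0 and the median was 0.02.

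Exons of another annotated gene overlapped those of 15 repair genes, in 6 of them over at least 10% of the exon bases. These were Fancc (18.6%), Fanci (15.95%, Polg), Rad54l (15.4%, Lrrc41), Fancf (14.96%, Gas2), Fancl (13.7%, Vrk2) and Fanca (10.5%, Zfp276). Smart-seq2 keeps no strand, so reads of such stretches cannot be told apart by gene, and the values of these 6 genes are uncertain to that extent.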

How the data were processed

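The authors deposited HTSeq counts per gene for 8 libraries, unnormalized. Per the submitters' processing notes reads were handled with HISAT2 2.1.0, HTSeq 0.11.2 and DESeq2 on the mm10 build. Neither the annotation release nor the strand setting is given in the sources used here. Each table ends in 5 summary lines, which were left out of library sizes: 9.69 to 16.94% of the summed table was outside genes and 8.94 to 12.28% ambiguous. Members and lists were chosen with earlier results of these data known. Of the lists, 2 genes are not reported here and were left out of their lists' counts and sums.

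Groups were compared with edgeR 4.0.16 (R 4.3.3): TMM scaling, filterByExpr at its defaults (minimum count 10, total 15), robust quasi-likelihood fits, and Benjamini-Hochberg adjustment over all 14360 genes at a threshold of 0.05. CPM divide counts by the TMM-scaled library size in M. SE is the log2 difference divided by the square root of F, and intervals use the t distribution with the fit's degrees of freedom. Library means used log2 CPM with a prior count of 2. Exon lengths, overlaps and 3′ UTRs came from GENCODE M21 (mm10), microRNAs and promoters from RefSeq.

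By rule, every library's value was given for members past the threshold, at an unadjusted p below 0.05 or without overlap (0 of each) and for the highest and lowest level per length of each role. Of each companion or cell cycle list, up to 3 genes of smallest unadjusted p below 0.05 were named. Fancd2, Brca1, Xrcc3, Mre11a, the markers given by their differences and the genes cited as examples were added after their values were seen. Other settings tried were scaling by RLE or upper quartile, DESeq2 1.42.0, limma-voom (limma 3.58.1) with quality weights, a fit that was not robust, the replicate number as a block, leaving out libraries, and filtering either not at all or at 5 CPM in 4 libraries.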

Additional observations from a re-analysis of the deposited data

Results flagged for a closer look

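In the G2 and M phase list, NTC replicate 3 had a mean of 5.403 log2 CPM, far above the 4.74 to 4.84 of the other NTC libraries. The share of the summed table that fell outside annotated genes was 16.94% in NTC replicate 1, far above the 10.39 to 11.35% of the other NTC libraries. Both were singled out because the gap to the nearest library exceeded Dixon's critical value for 4 samples, which chance alone passes in about 5% of groups. Of 70 groups of values of the 35 repair genes, 0 passed that limit.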

How the results depend on the processing

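Over all genes, DESeq2 called 61, and 0 were called with the replicate number as a block, without NTC replicates 3 and 4, or without any single library (0 to 0), where fewer samples entered the fit. Same-numbered libraries had no deviations in common, at correlations of -0.03 to -0.01. The labels do not say whether they were paired, and these correlations cannot decide it. With the longest transcript as length the median level was 4.58 CPM per kb. Under 17 alternatives 0 repair genes passed, with a smallest adjusted p of 0.507. With a filter of 5 CPM in 4 libraries Fanca, Fanci and Rad51c were not tested. The median log2 difference ran from 0.08 to 0.16 leaving out 1 library. In 21 genes the sign held throughout, and in the other 14 the sign was opposite in 38 of 237 values: Rad50 0.0062 and Chek2 0.0018 with upper-quartile scaling, Fancb 0.82 and Fanci -1.33 in limma-voom, Fanci -0.0411 and Brip1 0.0002 with the replicate block, and Usp1 -0.35, Brca1 -0.23, Brip1 0.15 and Blm -0.12 without NTC replicates 3 and 4. Leaving out 1 library, values ran from -0.81 to 0.72 for Fancb, -0.14 to 0.40 for Usp1, -0.0888 to 0.0569 for Rad50, -0.34 to 0.16 for Chek2, -0.58 to 1.05 for Fancm, -0.0882 to 0.28 for Ercc4, -0.39 to 0.28 for Brip1, -0.15 to 0.29 for Atm, -0.38 to 0.0134 for Palb2, -0.0363 to 0.42 for Rad51d, -0.0757 to 0.53 for Rad54l and -0.0177 to 0.64 for Blm. The cause was not tested. The 14 genes under 15 CPM had a median SE of 0.76, against 0.32 in the other 21.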
